A study of Homo sapiens with 480 samples.

Results

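Single BJ fibroblasts at day 2 after induced viral expression of the reprogramming factors were compared, gene by gene, with BJ fibroblasts that had received no factors. The cells were taken from the 2 groups that carry these labels, each cell was rescaled to a total of 1000000, and cells with at least 2000 genes at a value of 1 or more were kept. This left 188 cells, 92 of 96 BJ cells and 96 of 96 cells of day 2, of 480 cells in the whole series, of which 460 met the same limit. BJ is an established line of fibroblasts from human neonatal skin. The untreated group is labelled WT, and the day 2 group is the same line with viral expression of OSKM, which stands for OCT4 (gene POU5F1), SOX2, KLF4 and MYC. BJ cells were expanded in medium with fetal bovine serum, and the medium of the day 2 cells after induction is not given in the sources used here. The remaining groups, day 8 and the TRA-1-60 positive and negative fractions of day 16, are used below only as levels for named genes. No label names separate cultures, infections or chips, so each group is 1 sample. Cells of 1 sample are not replicates of a condition, and no test between the groups was possible: differences are given as sizes, and the intervals of shares cover counting error only. The vector, its promoter, the inducing agent and any control virus are not given in the sources used here, so infection, induction and the factors themselves cannot be told apart.

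Reprogramming turns a differentiated cell into a pluripotent one by forced expression of a few transcription factors. OCT4 and SOX2 belong to the core network of pluripotent cells, KLF4 is also a factor of epithelial barriers, and MYC drives ribosome building and growth. In the first days the pluripotency network is not yet running, and fibroblasts are known to lose parts of their mesenchymal programme and to gain epithelial genes before pluripotency genes come on. A dermal fibroblast makes collagen matrix and carries contractile stress fibres, whose genes are driven by serum response factor (SRF) and its actin-sensing partners of the MRTF family.

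Levels are FPKM (fragments per kilobase of transcript, per 1000000 fragments), rescaled per cell as above and averaged over the kept cells. They are per length, so levels of different genes can be set side by side, with less certainty for small RNA genes and genes with copies. The 5 groups lie in separate tables, and whether these were normalized together is not stated. The effect of a gene is the log2 ratio of its means after adding 1 to each, and a gene was called at a ratio of at least 2-fold, provided that the difference of its mean log2(value + 1) had the same sign. A gene was measured if its mean was 1 or more in at least 1 of both groups. Detected genes per cell ranged from 2625 through a median of 5678 to 8133 in BJ and from 2248 through 5880.5 to 8478 at day 2, so the groups overlapped almost fully in this respect. FPKM are not counts, and the read depth behind each cell is unknown. In 4 BJ cells and 3 cells of day 2 small RNA genes took over 10% of the total. Markers of fibroblasts were present in both groups: all 9 of the fixed markers had a mean of 1 or more, with a summed level per cell of 945 to 26857 (median 11545) in BJ and of 199.7 to 30024 (median 5146) at day 2. VIM, the intermediate filament of mesenchymal cells, was detected in every cell and averaged 7607 in BJ and 3829.6 at day 2.

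Of 27021 genes in the tables, 12480 were measured. At day 2, 1525 of them (12.2%) were at least 2-fold higher than in BJ and 1515 (12.1%) at least 2-fold lower, and 407 and 242 were past 4-fold. The median log2 ratio was -0.02, with 25% of the genes below -0.59 and 25% above 0.53. The even split depended on the scaling: of all called genes 50.2% were higher here, 65.5% with the FPKM as deposited, 59.2% with cells scaled on housekeeping genes and 60.7% with means that leave out the highest 5% of cells of each gene. These 3 settings moved the median of all genes to 0.17, 0.13 and 0.13. By the difference of mean log2(value + 1) in place of the ratio of means, 459 genes were at least 2-fold higher and 590 lower. In 447 of the higher and 495 of the lower genes a single cell gave at least 50% of the sum of its group. A stricter set asked for 3 things: the larger of both means had to reach 10, the ratio 2-fold, and the shares of cells with the gene had to differ by 25 percentage points or more the same way. It held 131 genes (1.05%) that were higher and 156 (1.25%) that were lower, and it is called the broad set below. No gene separated the groups completely. Among the 198 genes with a level of 1000 or more, 14.6% were higher and 7.58% lower, against 13.8% and 12.3% of the 6342 genes between 1 and 10. Of the 10 genes with the largest rise in mean level, 6 were pseudogenes or had a pseudogene of their name. The plot of mean levels shows the spread of all measured genes.

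**Figure D1:**
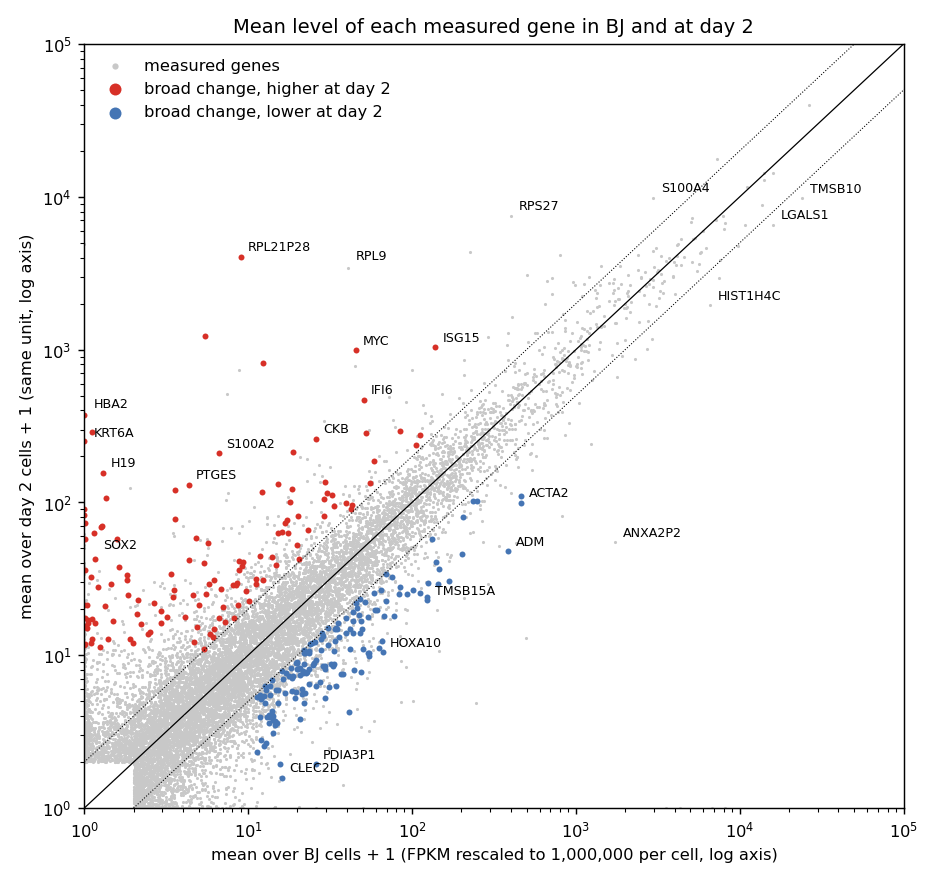
Each point is 1 of 12480 measured genes, with its mean level plus 1 over 92 BJ cells on the horizontal axis and over 96 cells of day 2 on the vertical axis, both log scaled, in FPKM rescaled to 1000000 per cell. The solid line marks equal levels, the dotted lines 2-fold differences, and the colours mark the 131 genes of the broad set that were higher and the 156 that were lower.

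The cells themselves lay apart along the second axis of variation. In a principal component analysis of the 6138 genes with a mean of 10 or more, the first component (13.2% of the variance) followed the number of detected genes, with r = -0.90 across cells, and held both groups. The second (4.18%) ran from -47.5 through a median of -33.4 to -0.450 in BJ and from -30.2 through 34.3 to 76.9 at day 2. Of the day 2 cells 83 lay above every BJ cell and 13 lay within the range of BJ. With pseudogenes, and genes that have a pseudogene of their name, left out, the count was 77 against 19. The genes that weighed most toward BJ were ANXA2P2, ID3, TGFB1I1, GREM1 and CYR61, and those toward day 2 included RPL9, RPL36A, CKB, RPL21, HBA2, H19 and MYC. The median correlation between 2 cells over these genes was 0.557 within BJ, 0.540 within day 2 and 0.518 between the groups.

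**Figure D2:**
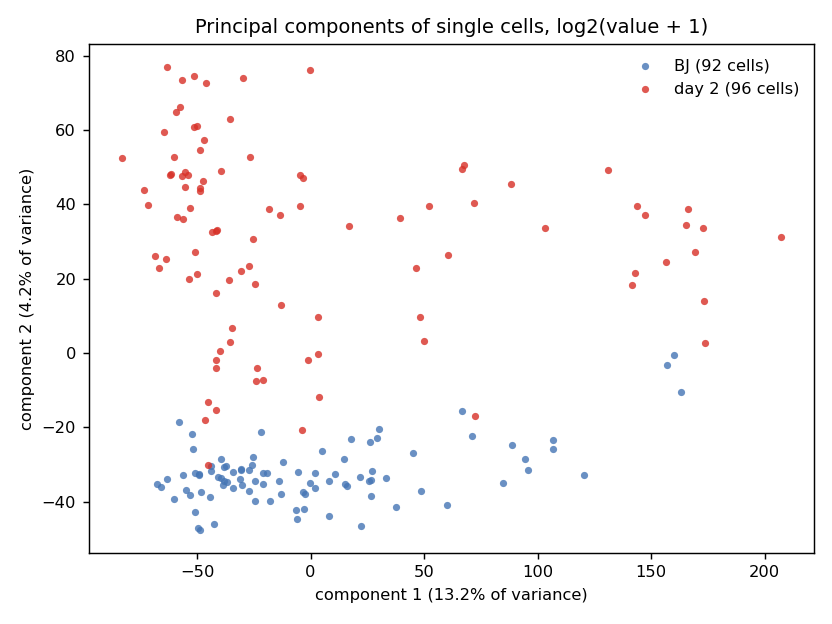
Each point is 1 cell, placed by its first (13.2% of variance) and second (4.18%) principal component of log2(value + 1), in component units, with 92 BJ cells in blue and 96 cells of day 2 in red. Most day 2 cells sit above the BJ cells on the vertical axis, and 13 lie within the range of BJ.

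Of the 4 factors, MYC had the most day 2 cells above every BJ cell, and SOX2 the largest ratio of means (log2 5.77 against 4.44 for MYC). MYC, which drives growth genes, ran from 0 through a median of 11.5 to 553 per cell in BJ and from 0.853 through 676 to 5051 at day 2, a 22.2-fold higher mean. 59 of the 96 day 2 cells exceeded the highest BJ cell, while the rest lay within the range of BJ. SOX2, a partner of OCT4, had values of 1 or more in 2 of 92 BJ cells (2.17%, exact Clopper-Pearson 95% interval 0.264 to 7.63%) and 59 of 96 day 2 cells (61.5%, 50.97 to 71.2%). KLF4 was less separate: its median was 0 in BJ and 9.63 at day 2, and 8 day 2 cells exceeded the BJ maximum of 93.5. POU5F1 itself averaged 0.450 in BJ and 0.265 at day 2, and it was listed at a mean of 0.302 even in the TRA-1-60 positive fraction of day 16, so its values did not check the label. The tables do not separate transcripts of the vector from those of the cell's own genes. Pluripotency markers were near 0: NANOG averaged 0.0491 and LIN28A 0.00446 at day 2.

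A set of 14 genes was found in at most 5% of BJ cells and in at least 50% of day 2 cells, while 1 gene, LOC727896, went the other way. They include C8orf31, H19, HBA2, KRT14, KRT6A, MX1, NFATC2, NSG1, PI16, PRELP, PTHLH, RHOF and SOX2. HBA2, an alpha chain of haemoglobin, was listed at 0 in all 92 BJ cells, where the limit of 3 cells of 92 that a count of 0 allows is 3.26%, and ran from 0 through 42.9 to 7236 at day 2. KRT6A, a keratin of stressed and wounded epidermis, was likewise at 0 in all BJ cells and reached 3782 with a median of 1.74. KRT14, the keratin of basal epidermal cells, was at 0 in BJ and between 0 and 2136 (median 10.6) at day 2. H19, an imprinted noncoding RNA, had a median of 0 and a maximum of 13.6 in BJ, against a median of 72.96 and a maximum of 1635 at day 2. Each of these 4 genes was below 1 in more than 20% of the day 2 cells. PTHLH, a secreted hormone related to parathyroid hormone, went from a mean of 0.259 to 67.7, PI16, a secreted inhibitor found in some fibroblasts, from 0.00428 to 72.6, and NFATC2, a calcium-regulated transcription factor, from 0.0946 to 31.6. PRELP, a small matrix proteoglycan, averaged 0.120 in BJ and 16.1 at day 2.

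Counted per cell, BJ cells held between 0 and 3 of these 14 genes, with a median of 0, and 71 of 92 held none. Day 2 cells held between 0 and 14, with a median of 9. At least 7 were present in 64 of the 96 day 2 cells and in no BJ cell, and 1 day 2 cell held none. The genes were chosen for this difference, so the counts describe how they were spread over the cells and are no test. Their levels at later times differed by gene. HBA2 averaged 60.5 at day 8 and was listed at 0 in both fractions of day 16. H19 averaged 715 at day 8, while the TRA-1-60 positive cells averaged 128 and the negative ones 1174. PTHLH stood at 127, 3.14 and 567 in these groups, and both genes had their highest mean in the negative fraction.

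**Figure D3:**
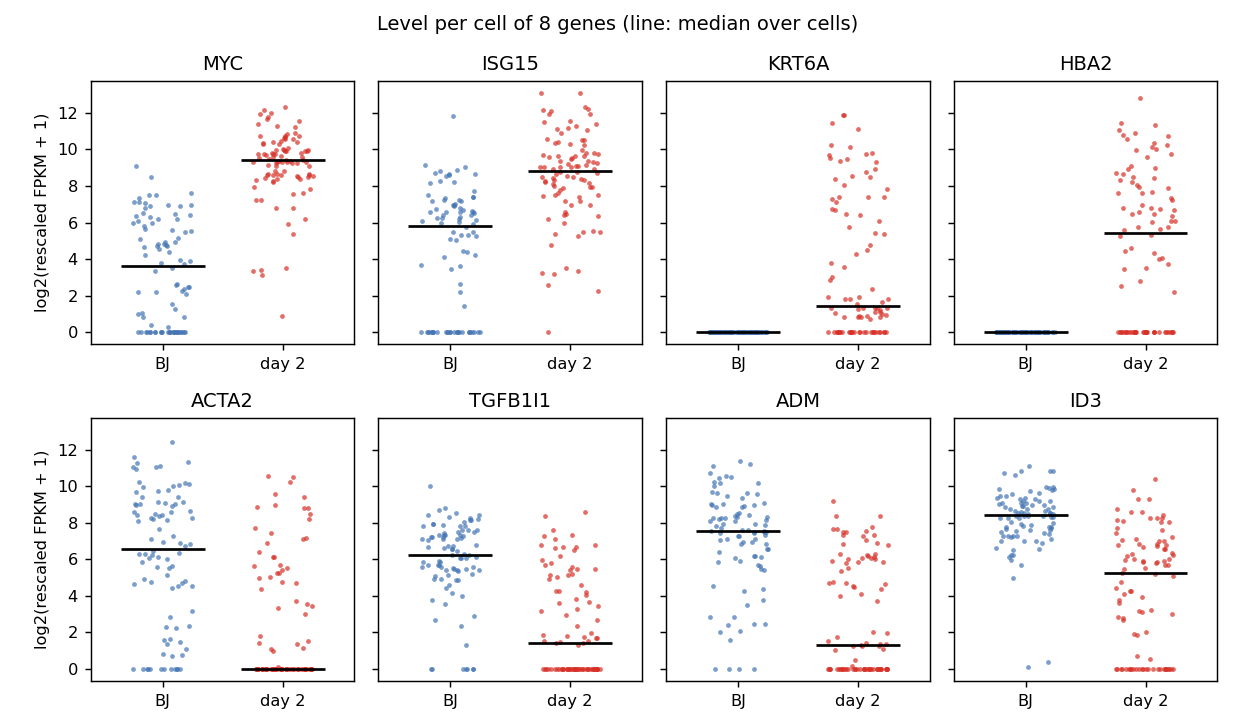
Level per cell of 8 genes on a log2(FPKM rescaled to 1000000 + 1) scale, with 92 BJ cells in blue and 96 cells of day 2 in red and a line at the median over cells. KRT6A and HBA2 are at 0 in every BJ cell, MYC and ISG15 overlap between the groups, and ACTA2, TGFB1I1, ADM and ID3 have a lower median at day 2.

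Several epithelial genes were higher at day 2, while most of the fixed keratinocyte markers were not. Of 13 measured simple epithelial keratins and junction genes, 8 were higher and 2 lower, with a median log2 ratio of 1.66 against -0.02 for all genes. The median was 0.33 with a pseudocount of 10. JUP, the plakoglobin of desmosomes and adherens junctions, was present in 7.61% of BJ cells (3.11 to 15.1%) and 81.2% of day 2 cells (71.995 to 88.5%). KRT8 and KRT18, the partner keratins of simple epithelia, went from 4.72 to 53.6 and from 289 to 1214, although 1 cell gave 56.3% of the KRT8 sum at day 2. DSP, the desmosomal linker desmoplakin, went from 13.9 to 53.1. FERMT1, the kindlin of epithelial cells, was in 14.1% and 87.5% of cells and was among the 10 genes whose share of cells differed most. TGM2, a crosslinking transglutaminase outside the list of 13 measured genes, went from 3.81 to 57.8, and 1 cell gave 19.5% of its day 2 sum. Of the defining keratinocyte markers, KRT5 averaged 0.0425, TP63 0.00473, DSG3 0.0113 and KRT1 0.00620 at day 2. KRT10, a keratin of upper epidermal layers, averaged 31.6 in BJ and 18.2 at day 2, and KRT14 was the 1 marker that was called higher. The epidermal keratins KRT6A, KRT16 and KRT17, which are not among these markers, were higher too. The summed level of all 6 keratinocyte markers ran from 0 to 281 per cell in BJ and from 0 to 2137 at day 2. The blood markers were low beside the globins: PTPRC was in 2 of 96 day 2 cells, CD3E in 4, SPI1 in 1, and the summed level of the 5 fixed blood markers reached 32.3 in BJ and 95.9 at day 2. A longer list of blood and immune markers had 6 measured genes, of which 4 were higher and 1 lower. The higher ones were HBA2, HBA1, HBB (0 to 11.03) and CD14 (0.0359 to 1.45), and TYROBP was the lower one (1.90 to 0.154). The part of other cells in these values was not tested.

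Several of these genes are neighbours on their chromosomes, in the order of RefSeq genes on GRCh38.p14, where 11605 measured genes could be placed. All 5 measured genes in 1 stretch of the type I keratin cluster on chromosome 17 were higher: KRT13 (0.524 to 5.51), KRT19 (2.32 to 24.02), KRT14, KRT16 (0.0630 to 28.6) and KRT17 (2.58 to 76.7). On chromosome 12 KRT6A, KRT8 and KRT18 followed each other. The alpha-globin genes HBZ (0.590 to 56.2), HBA2 and HBA1 (0 to 10.7) formed a run on chromosome 16. HBA1 and HBA2 are nearly identical copies, so the split between them is uncertain. In the S100 cluster on chromosome 1, which encodes small calcium-binding proteins, 6 measured genes in a row were higher, among them S100A4, S100A3 (12.6 to 30.3), S100A2 (5.61 to 209) and S100A16 (386 to 1283). SLURP1 (0 to 89.3), LYPD2 (0 to 14.5), LYNX1, LY6D (0.115 to 288), LY6E and LY6H, small proteins of the LY6 family, formed a run of 6 on chromosome 8. H19, IGF2 (0.637 to 37.1), TH and ASCL2 were neighbours on chromosome 11. IFIT2, IFIT3 and IFIT1, and OAS1, OAS3 and OAS2, were 2 runs of interferon genes.

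Over the genome, the next measured gene after a higher gene was itself higher in 226 of 1404 cases (16.1%), against 12.1% of all placed genes. After a lower gene the next was lower in 222 of 1373 cases (16.2%), against 11.8%. Within the broad set the counts were 8 of 128 (6.25%, against 1.10%) for higher genes. For lower genes they were 1 of 151 (0.66%, against 1.30%). Runs of at least 3 numbered 36 among higher and 33 among lower genes, and runs of at least 5 numbered 3 and 0. The 3 runs of 5 or more are those of S100, LY6 and keratin genes named above. Neighbouring genes can overlap or share sequence, and the effect of this on the counts was not tested. The most extreme shares of lower genes, picked after all chromosomes were seen, were on chromosomes 19, 21, 22 and 20. They were 16.6% (131 of 787), 17.9% (20 of 112), 16.8% (47 of 279) and 7.83% (26 of 332).

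The contractile programme was lower as a group. Of 21 measured SRF and MRTF target genes, 13 were lower and 0 higher, with a median log2 ratio of -1.26. Their summed level per cell ran from 1717 through 28189 to 57859 in BJ and from 639 through 10006 to 41097 at day 2. The groups overlapped, but 84 of 96 day 2 cells lay below the median BJ cell. FHL1, a LIM protein of muscle, had a median of 79.3 in BJ and 3.95 at day 2. CNN2, a calponin that stabilises actin filaments, ran from 0 through 109.5 to 439 in BJ and from 0 through 9.25 to 188 at day 2. FLNA, the filament crosslinker filamin A, had medians of 28.2 and 8.94, and TLN1, which links integrins to actin, was in 93.5% and 47.9% of cells. The cytoplasmic actins ACTG1 and ACTB were 2.56-fold and 2.03-fold lower in mean, and each was detected in every cell. SRF itself went from 14.6 to 5.53, but 1 BJ cell gave 53.1% of its BJ sum. TAGLN, TPM2, VCL and MYL9, also of this list, lay between -0.85 and -0.35 and were not called.

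The CArG box, the 10-base site of SRF, was searched on both strands in the 250 bases before the first listed start of each gene, in RefSeq promoters on GRCh38.p14 that matched 9841 of the 12480 measured genes. It was found in 104 (1.06%) of all promoters, in 22 (2.00%) of those of lower genes and in 13 (1.21%) of those of higher genes. In the SRF and MRTF list 6 of 19 matched promoters held it, 4 of them of genes that were lower: CNN2, ACTG1, FLNA and SRF. FHL2 and ACTG2, which were not called, held it too. The stretches of CNN2, ACTG1 and FLNA are shown, with the site in capitals, since their lower levels did not rest on 1 cell. A match is a description of these letters and not a site of binding. The stretches lie at chr19:1026504-1026543 on the plus strand, chr17:81512869-81512908 on the minus strand and chrX:154374704-154374743 on the minus strand.
CNN2: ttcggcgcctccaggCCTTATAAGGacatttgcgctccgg
ACTG1: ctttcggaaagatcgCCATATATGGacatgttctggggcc
FLNA: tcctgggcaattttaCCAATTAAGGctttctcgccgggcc

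Several other cytoskeletal genes were lower too, though most members of their lists were not called. Actin turnover genes had 3 lower (14.3%) and 0 higher of 21. Tubulins had 2 lower and 1 higher of 11 and kinesins 1 and 1 of 28, against 12.1% and 12.2% of all genes. BCAR1, a docking protein of focal adhesions, went from 36.8 to 7.92. TMSB10, a thymosin that binds free actin, ran from 5513 through 22754 to 52520.1 in BJ and from 651 through 8495 to 26422 at day 2. It was the gene with the largest drop in mean level, and 14 day 2 cells lay below every BJ cell. LGALS1, the galactose-binding lectin galectin 1, showed the same order, with medians of 15169.8 and 5781 and 22 day 2 cells below every BJ cell. TMSB15A, another thymosin, was in 66.3% of BJ cells and 16.7% of day 2 cells. Cofilin (CFL1, -0.67) and profilin (PFN1, -0.98) were not called. TUBA1A, an alpha-tubulin, went from 902 to 331, while TUBA4A, another, went from 14.3 to 62.3.

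The list of YAP and TEAD, factors that read cell tension, together with their targets had 6 lower (37.5%) and 2 higher (12.5%) of 16. Its median was -0.78, or -0.45 with a pseudocount of 10. The higher share was near the 12.2% of all genes, and 12.1% of all genes were lower. The factors TEAD2 (-1.22) and TEAD3 (-1.61) were among the lower ones. ANKRD1 went from 4.01 to 0.276 and the scaffold AMOTL2 from 74.03 to 25.7, whereas its relative AMOTL1 went from 2.69 to 13.5. F3, tissue factor, the starter of clotting, went from 29.2 to 114 and from 64.1% to 93.8% of cells.

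Matrix genes were mixed, with more lower than higher members. Among 23 measured collagen chains 6 were lower and 1 higher, with a median of -0.47 that came to 0.03 with the FPKM as deposited. COL16A1 went from 15.9 to 6.60, though its log2 ratio was 0.61 with the FPKM as deposited, and COL6A2 from 44.7 to 20.7, while COL9A3, a cartilage chain, went from 0.00891 to 5.35. The enzymes that fold and crosslink collagen were lower in 6 of 18 and higher in 0. SERPINH1, the collagen chaperone HSP47, ran from 0 through 143 to 1375 in BJ and from 0 through 37.6 to 338 at day 2. Its day 2 cells all lay within the range of BJ, toward the low end. PCOLCE, an enhancer of procollagen processing, went from 444 to 169, LOXL4, a lysyl oxidase, from 10.9 to 1.77, and PLOD2, a lysyl hydroxylase, from 51.9 to 23.96. CTHRC1, a secreted collagen-repeat protein, was in 86.96% and 48.96% of cells, and TNC, tenascin C, in 89.1% and 54.2%.

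Some matrix genes went the other way. VCAN, the large proteoglycan versican, was in 59.8% of BJ cells (49.04 to 69.9%) and 92.7% of day 2 cells (85.6 to 97.02%). SPON2, a secreted adhesion protein, went from 15.8 to 71.9 and MFAP5, a microfibril glycoprotein, from 14.9 to 62.04. The inhibitors of matrix proteases TIMP1 and TIMP3 had means of 559 and 106 in BJ and 1282 and 270.2 at day 2. Fibroblast markers as a list counted 8 lower and 1 higher of 23, with THY1, a surface glycoprotein of fibroblasts, at 265 and 101. PDGFRB, a receptor of platelet-derived growth factor, was in 85.9% of BJ cells and 44.8% of day 2 cells. FN1, FAP and PRRX1 were not called, at -0.28, -0.20 and 0.18 on the log2 scale.

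Among secreted signals, ADM, the vasodilator peptide adrenomedullin, had the largest drop of mean log2(value + 1) after the pseudogene ANXA2P2 (-4.19). It ran from 0 through 186 to 2637 in BJ and from 0 through 1.49 to 574 at day 2. The other genes of the hypoxia list that were called lower were EPAS1, a hypoxia-inducible factor, at 9.43 and 1.11, and PLIN2, a coat protein of lipid droplets, at 121 and 54.03. The list as a whole had 3 lower (17.6%) and 1 higher of 17, against 12.1% and 12.2% of all genes, and VEGFA was not called (0.97). FGFR1, a fibroblast growth factor receptor, went from 56.8 to 19.1. ERBB3, a receptor of neuregulins, went from 0.158 to 41.7, EREG, an EGF-family ligand, from 0.608 to 10.7, and GDF15, a stress-induced hormone, from 16.9 to 100.1. IGFBP6 and IGFBP3 bind insulin-like growth factors, and they differed in opposite directions: IGFBP6 had a median of 28.7 in BJ and 310.1 at day 2, IGFBP3 a mean of 374 and 174.

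The BMP pathway, a branch of TGF-beta signalling, had 7 lower (35%) and 2 higher (10%) of 20, against 12.1% and 12.2% of all genes. ID3, a direct BMP target that blocks differentiation factors, ran from 0.0663 through 343 to 2213 in BJ and from 0 through 36.6 to 1363 at day 2. 26 of the 96 day 2 cells lay below the lowest BJ cell. The secreted antagonists FST, of activin, and NOG, of BMP, were lower at 23.9 and 7.59 and at 2.14 and 0.108, while FSTL3, another antagonist of activin, was not called (0.22). In the Wnt pathway 6 genes were lower and 3 higher of 21, the higher count being near the 12.2% of all genes. FZD2, a Wnt receptor, was in 88.04% and 38.5% of cells, TCF7L1, a transcriptional repressor of the pathway, in 56.5% and 26.04%, and the ligand WNT16 in 0% and 32.3%. HES1, the main target of Notch, had a median of 141 in BJ and 36.7 at day 2. Of the phosphatases that damp ERK signalling, DUSP6 was in 72.8% of BJ cells (62.6 to 81.6%) and 23.96% of day 2 cells (15.8 to 33.7%), while DUSP4 was in 4.35% and 27.1%. Receptors coupled to G proteins included OXTR, the oxytocin receptor, with medians of 86.5 and 6.13, and BDKRB1, a bradykinin receptor, at 42.9 and 15.8.

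Families of transcription factors differed from each other. Immediate-early genes, which respond to serum within minutes, were lower in 10 of 19 cases (52.6%) and higher in 2 (10.5%). The shares over all genes were 12.1% and 12.2%. The list had a median of -1.07, or -0.43 by the difference of mean log2. Its summed level had a median of 878 per BJ cell and 377 per day 2 cell. ZFP36, a protein that destabilises mRNAs of cytokines, was in 73.9% and 31.2% of cells, and IER2 in 89.1% and 76.04%. EGR2 went the other way, from 0.297 to 7.83, and JUNB, FOSL2 and ATF3 were not called. HOX genes, which hold the positional memory of fibroblasts, were lower in 5 of 13 and higher in 0, with a median of -0.77 that came to -0.12 by the difference of mean log2. HOXA10 had a median of 28.4 in BJ and 0 at day 2, and the other called HOX genes had BJ means between 3.38 (HOXC10) and 11.2 (HOXA11). FOXD1, a forkhead factor of stromal cells, was in 75% and 26.04% of cells. KLF and SP factors counted 5 higher (31.25%) and 2 lower (12.5%) of 16, against 12.2% and 12.1% of all genes. Their median was 0.36, or -0.02 with cells scaled without small RNA and mitochondrial genes. SOX, FOX, TBX and GATA factors counted 4 higher and 5 lower of 33. ZNF genes counted 44 and 39 of 358, and both of these families were near the shares over all genes. KLF4 and SOX2, factors of the OSKM set, were themselves called higher, and counts of their families without them were not made. PRRX2, a homeobox factor of mesenchyme, was higher, with medians of 22.8 and 77.4, and KLF3, a repressor related to KLF4, was in 30.4% and 79.2% of cells.

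**Figure D4:**
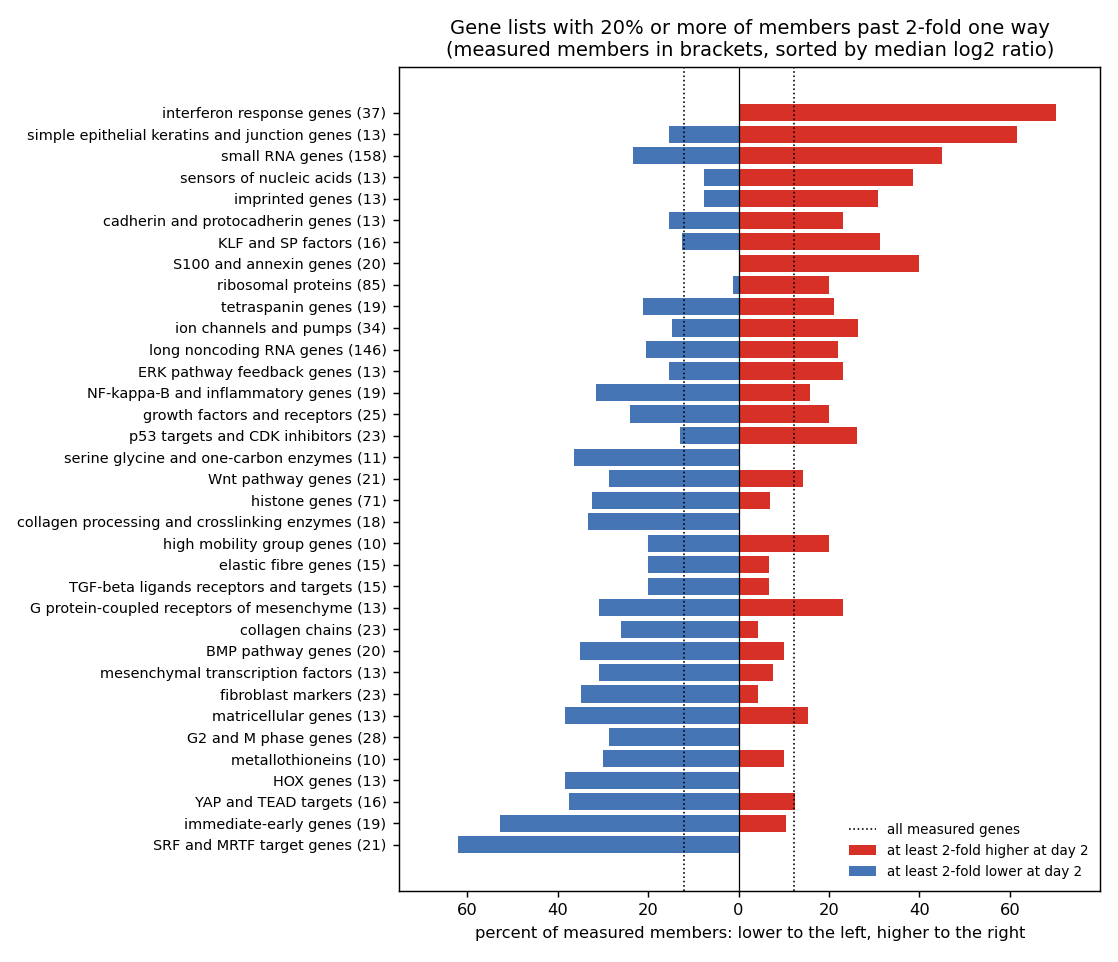
Bars give the percent of measured members of each gene list that were at least 2-fold lower (to the left) or higher (to the right) at day 2, for lists of 10 or more measured members with 20% or more past 2-fold one way, ordered by median log2 ratio. The dotted lines mark the shares over all measured genes, 12.1% and 12.2%, and the interferon and the SRF lists reach furthest from them.

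Genes of the interferon response were the most one-sided list among those with at least 20 measured members. Cells make interferon when they sense viral nucleic acids, and its target genes slow viruses down. Of 37 measured members 26 were higher and 0 lower, with a median of 1.68, and the summed level ran from 517 through 2872 to 22420.1 per BJ cell and from 426 through 6166 to 30660.2 per day 2 cell. 79 of 96 day 2 cells lay above the median BJ cell, and 4 above all BJ cells. IFI6, an antiviral membrane protein, had a median of 0 in BJ and 219 at day 2, yet 1 BJ cell reached 1655. IFI27, a mitochondrial protein, was in 1 of 92 BJ cells and 36 of 96 day 2 cells (37.5%, 27.8 to 47.97%). OAS1, a sensor that makes a messenger from double-stranded RNA, was listed at 0 in every BJ cell and at 1 or more in 34 of 96 day 2 cells (35.4%, 25.9 to 45.8%). IFITM1, a barrier to viral entry, ran from 0 through 144 to 7766 in BJ and from 5.13 through 773 to 16664 at day 2. The transducer STAT2 (0.64) was not called, and IRF9, which joins it, went from 16.9 to 56.1. Of the sensors of nucleic acids 5 of 13 were higher, among them IFIH1 (0.353 to 4.91), and MB21D1, the DNA sensor cGAS, was lower (26.6 to 2.36). IFI30, a lysosomal reductase of antigen processing, was in 16.3% of BJ cells and 72.9% of day 2 cells.

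The letters GAAA, any 2 bases and GAAA again, the core of the interferon-stimulated response element, were found on either strand of 224 (2.28%) of all 9841 promoters of 250 bases, of 40 (3.71%) of those of higher genes and of 24 (2.18%) of those of lower genes. In the interferon list 16 of 28 matched promoters held them. Of these 16 genes 12 were higher, and of the 12 without them 8 were higher. ISG15, a ubiquitin-like protein, had medians of 56.3 and 456, and IFI44L went from 0.283 to 3.15. BST2, IFIH1, IFIT1, IFIT3 and OAS3 carried 2 or more such matches and were higher, but are not shown. HERC5, IFIT5 and IFITM3 also carried 2 or more and were not called. The stretches below are examples with 2 or more such matches, in capitals, in genes that were higher at day 2. Overlapping matches run together. TTTC at the start of the capitals of IFI27 marks a match on the opposite strand. They lie at chr1:27672261-27672363 on the minus strand, chr1:1013369-1013414 and chr1:78620269-78620399 on the plus strand and chr14:94110613-94110665 on the plus strand of GRCh38.p14, from RefSeq.
IFI6: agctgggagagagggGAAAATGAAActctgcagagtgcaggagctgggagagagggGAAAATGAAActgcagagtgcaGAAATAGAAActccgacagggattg
ISG15: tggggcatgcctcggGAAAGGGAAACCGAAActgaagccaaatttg
IFI44L: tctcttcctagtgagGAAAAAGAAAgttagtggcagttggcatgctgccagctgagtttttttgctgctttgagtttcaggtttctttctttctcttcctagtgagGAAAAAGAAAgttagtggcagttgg
IFI27: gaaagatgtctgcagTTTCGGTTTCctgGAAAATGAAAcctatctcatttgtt

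Of 19 NF-kappa-B and inflammatory genes 3 were higher (15.8%) and 6 lower (31.6%). The higher share was near the 12.2% of all genes, and 12.1% of all genes were lower. ICAM1, an adhesion receptor for leukocytes, was in 14.1% and 53.1% of cells, and the chemokine CCL2 in 35.9% and 7.29%. PTGES, which makes prostaglandin E2, ran from 0 through 0 to 56.9 in BJ and from 0 through 84.4 to 684 at day 2, with 51 cells above every BJ cell. CD55, which shields cells from complement, was in 45.7% and 87.5% of cells. CD9, a tetraspanin of the cell surface, had medians of 113 and 625.

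Genes of growth and translation differed by less per gene. Of 39 MYC targets in ribosome biogenesis 4 were at least 2-fold higher and 1 lower, below the share over all genes, but the median was 0.35 and the summed level ran from 945 through 4321 to 8348 in BJ and from 589 through 6592 to 12986 at day 2. 29 day 2 cells lay above all BJ cells. Of these genes 9 have a pseudogene of their name, and the median was 0.49 over the 30 without one. How much of the summed level came from single abundant genes such as NPM1 was not tested. NOP16, a nucleolar protein, had medians of 94.5 and 337, and NPM1, nucleophosmin, of 1841 and 3308. The E-box CACGTG, the site of MYC, was in 4 of 32 matched promoters of this list and in 9.04% of all promoters. ODC1, the first enzyme of polyamine synthesis, ran from 0 through 35.1 to 607 in BJ and from 0 through 222 to 3055 at day 2. Translation factors had 9 higher and 1 lower of 62, where 12.2% and 12.1% of all genes were called, and 53 of 96 day 2 cells exceeded every BJ cell in their summed level. EEF1A1, which brings aminoacyl-tRNA to the ribosome, had medians of 1162 and 2695, with 66 day 2 cells above every BJ cell. EEF1A1 and most ribosomal protein genes have processed copies elsewhere in the genome, and how reads were shared among copies is not given in the sources used here.

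The 10 genes with the most day 2 cells above every BJ cell were ribosomal protein genes or copies of them, and ANXA2P2 and RPSAP58 had the most day 2 cells below every BJ cell. These values are uncertain for this reason. RPL9, a ribosomal protein, ran from 0 through 25.4 to 365 in BJ and from 45.9 through 3274 to 10063 at day 2, with 92 of 96 cells above every BJ cell. RPL21P28, a pseudogene of RPL21, had medians of 4.67 and 4137, and RPL36A of 6.45 and 792. Going the other way, ANXA2P2, a copy of annexin A2, ran from 87.5 through 1784 to 3639 in BJ and from 1.83 through 45.4 to 441 at day 2, with 88 cells below every BJ cell. Its parent ANXA2 was not called, with means of 3675 and 3958. RPSAP58 went from 819 to 80.6 while its parent RPSA, a ribosomal protein of the small subunit, went from 709 to 2327. PDIA3P1 went from 24.9 to 0.942, and PDIA3, a disulfide isomerase, from 56.3 to 37.9. UQCRHL, a copy of a subunit of respiratory complex III, went from 429.7 to 53.6, and UQCRH from 1268 to 1796. Pseudogenes as a class were lower in 25.1% and higher in 12.8% of 227 cases. Genes with at least 5 pseudogenes of their name were higher in 14.6% and lower in 3.33% of 240 cases. Genes with none, 10844 in number, were higher in 12.5% and lower in 12.8%.

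The levels of these genes in the later groups are set side by side here. RPL9 had means of 55.3 at day 8, 54.5 in TRA-1-60 positive and 1453 in TRA-1-60 negative cells. RPL7 went from 226 in BJ to 4352 at day 2, and its later means were 406, 360.0 and 4449. ANXA2P2 averaged 2401, 354 and 40.02 in these 3 later groups, in that order. RPL9 and RPL7 were thus high, and ANXA2P2 low, at day 2 and in the negative fraction. IFI6 averaged 10.96, 1.69 and 411 in the later groups, and IFI44 averaged 17.5, 122, 10.96, 0.0183 and 68.6 in all 5. Both interferon genes were likewise higher at day 2 and in the negative fraction than at day 8. MX1 differed from them at day 8: it averaged 3.37 in BJ, 41.02 at day 2 and 44.1 at day 8. These comparisons share the BJ cells. The part that chip, library, mapping or tabulation had in the pattern was not tested, and with 1 table per group it cannot be told apart from day.

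**Figure D5:**
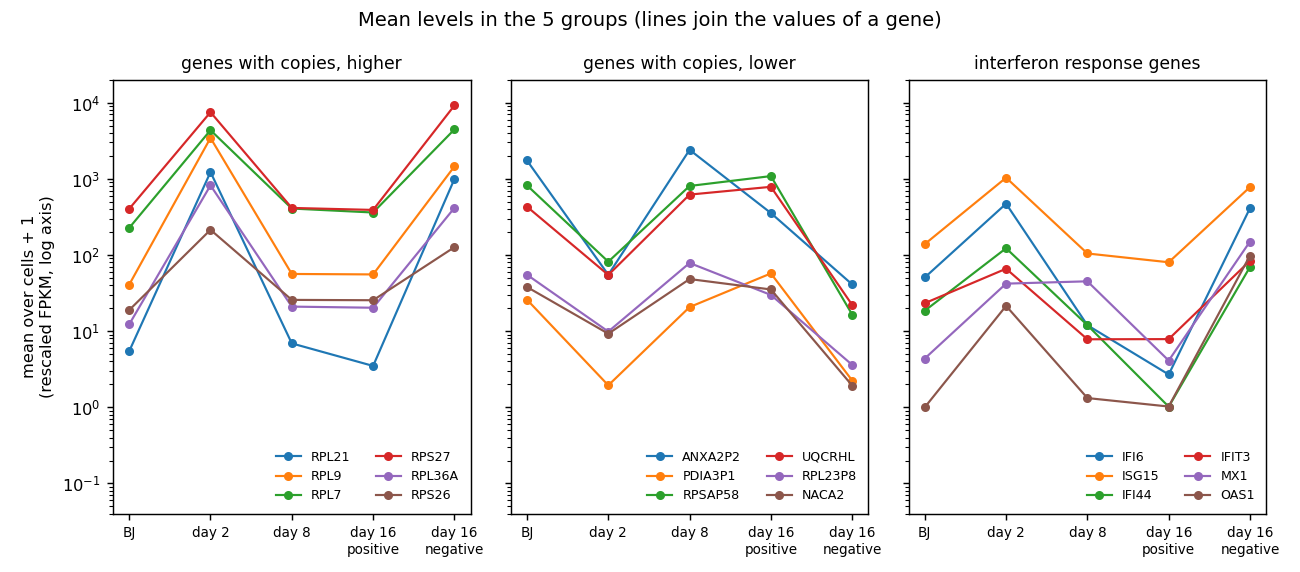
Mean level plus 1 per group, log axis, in FPKM rescaled to 1000000 per cell, for genes with copies that were higher at day 2 (left), genes with copies that were lower (middle) and interferon response genes (right); lines join the values of a gene. RPL9 and RPL7 are high and ANXA2P2 is low at day 2 and in the TRA-1-60 negative fraction of day 16.

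Several metabolic lists had few genes past 2-fold. Of 91 subunits of oxidative phosphorylation 3 were higher and 4 lower (median 0.04), of 22 glycolysis genes 1 and 2, of 22 lysosome genes 1 and 0, and of 19 aminoacyl-tRNA synthetases 0 and 1. Fatty acid and lipid genes had 4 higher and 2 lower of 22, against 12.2% and 12.1% of all genes. Of the 4 higher ones, 2 have no pseudogene of their name. Enzymes of serine, glycine and one-carbon metabolism differed, with 4 lower and 0 higher of 11. PHGDH, the entry enzyme of serine synthesis, went from 132 to 56.7 and the mitochondrial SHMT2 from 154 to 65.8. On the high side CKB, the creatine kinase that buffers ATP, was in 21.7% of BJ cells (13.8 to 31.6%) and 91.7% of day 2 cells (84.2 to 96.3%), with a median of 0 and 170.0. SLC6A8, the creatine transporter, went from 3.62 to 23.8. FABP5, a fatty acid carrier, had medians of 13.96 and 236, with 52 day 2 cells above every BJ cell. Whether copies elsewhere in the genome add to its level was not tested. PNP, a purine salvage enzyme, went from 28.2 to 104. HSPB1, a small heat shock protein that also binds actin, had medians of 232 and 28.2, and TRIB3, a pseudokinase of the stress response, was in 46.7% and 22.9% of cells. UCP2, a mitochondrial carrier, had medians of 63.7 and 2.40.

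Proliferation genes leaned lower, with wide overlap between cells. Of 28 G2 and M phase genes 8 were lower and 0 higher (median -0.65, or -0.40 with cells scaled on housekeeping genes), and of 28 S phase genes 5 and 1 (median -0.51, or -0.32 with that scaling). The lower shares were 28.6% and 17.9%, against 12.1% of all genes. CDC20, which activates the anaphase-promoting complex, was in 91.3% and 60.4% of cells, and MKI67, a marker of cycling cells, in 76.1% and 47.9%. CDK1 (-0.12) and BUB1 (-0.15) were not called. Of 71 histone genes 23 were lower and 5 higher, and their summed level had a median of 9646 per BJ cell and 4435 per day 2 cell. HIST1H4C, the most abundant of them, ran from 315 through 2202 to 40009 in BJ and from 0 through 523 to 12826 at day 2, with 28 day 2 cells below every BJ cell. Its mean was also at least 2-fold lower at day 2 and in the TRA-1-60 negative fraction than in each other group, the pattern described above. Replication-dependent histone mRNAs lack a long poly(A) tail, and the libraries are of polyadenylated RNA. H3F3A, a replacement histone, was higher (23.3 to 100.1). Of the 5 higher histone genes, 4 have no pseudogene of their name. HMGB2, a chromatin protein of dividing cells, had medians of 208 and 36.98, and DNMT1, the maintenance DNA methyltransferase, went from 56.9 to 27.1. Of the p53 targets and CDK inhibitors 6 were higher and 3 lower of 23, the lower count being near the 12.1% of all genes. MDM2, the ubiquitin ligase of p53, went from 8.40 to 32.9 and SESN1, a sestrin, from 1.47 to 10.3, while GADD45B, a stress-response gene, went from 31.3 to 7.78.

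Small RNA genes gave the largest ratios and the least support. Of 158 measured, 71 were higher and 37 lower, but the 1 BJ cell in which MIR558 was listed gave all of its mean of 8123, and the 1 day 2 cell in which MIR146A was listed gave all of its 4909. Such a value describes a cell, not the group.

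Further genes of the broad set are described here. CLEC2D, a ligand of a natural killer cell receptor, was in 97.8% of BJ cells (92.4 to 99.7%) and 14.6% of day 2 cells (8.21 to 23.3%), although its means were only 15.1 and 0.577. It had the pattern of day 2 and the negative fraction described above. FANCB, a subunit of the Fanconi anaemia DNA repair complex, was in 64.1% and 20.8% of cells, and ZNF22, a zinc finger protein, in 85.9% and 39.6%. FBLIM1, which tethers filamin to adhesions, had medians of 48.8 and 1.89, and FILIP1L, a filamin-interacting protein, of 16.6 and 0. EVA1A, a regulator of autophagy, went from 101 to 25.9. All of these were lower at day 2, except that with the FPKM as deposited FANCB, ZNF22 and FILIP1L had log2 ratios of 0.78, 0.60 and 0.74. On the higher side EPPK1, a plakin of the epithelial cytoskeleton, was in 0 of 92 BJ cells and 47.9% of day 2 cells (37.6 to 58.4%). ACKR3, a scavenging receptor for CXCL12, was in 0 of 92 BJ cells and 31.2% of day 2 cells, with 1 cell giving 43.9% of its sum. OCIAD2 was in 52.2% and 86.5% of cells, and DBNDD2 in 48.9% and 84.4%.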

How the data were processed

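Single cells were captured and reverse transcribed on Fluidigm C1 chips and sequenced as polyadenylated RNA, per the labels' protocols. The authors deposited 5 tables, 1 per group, of FPKM values per gene and cell. STAR, Cuffnorm and hg19 are named in the submitters' processing notes, without versions. No read counts per cell were used here, so depth and its error are unknown and no count model was run. The tables were rescaled per cell, filtered and averaged in Python 3.11.15 with numpy 2.4.6, pandas 2.3.3 and scipy 1.17.1. The pseudocount was 1. Doublets could not be called from 96 cells of FPKM, and an alternative leaves out the 5% of cells with the most genes. The steps were tested on simulated data. Gene order, names and promoters come from RefSeq on GRCh38.p14, and no coordinates of hg19 were used. The genes named are the 25 highest and 25 lowest broad genes by mean log2 difference, the 10 each way by share of cells and by mean level, the 6 with the largest ratios in each of 84 lists, the factors and markers, and members whose role the text describes. HOXC10, LOC727896, the neighbours in runs, the genes named for promoter matches and those given as not called were named after their values were seen. Some genes and 1 gene list are not reported here. The members and lists were chosen with earlier results of these data known.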

Additional observations from a re-analysis of the deposited data

How the results depend on the processing

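All values below are medians of log2 ratios unless said otherwise, a list counted as called at 0.5 or more either way, and the cause of each shift was not tested. The counts of genes at least 2-fold higher and lower were 2647 higher with FPKM as deposited, 459 and 590 by the difference of mean log2, 373 and 312 with a pseudocount of 10, 650 and 732 at a mean of 10 or more, and 736 lower with means that leave out the highest 5% of cells. The last setting and the deposited FPKM kept 584 and 1118 of the 1515 lower calls. The SRF and MRTF and the interferon lists stayed past 0.5 under all settings run. With FPKM as deposited, matricellular genes were at -0.12 and S phase genes at -0.29, pluripotency genes turned to 0.74, and single genes turned for COL16A1 (0.61), FANCB (0.78), FILIP1L (0.74) and ZNF22 (0.60). Scaling on housekeeping genes gave -0.32 for S phase, -0.40 for G2 and M phase genes and -0.85 for the log2 ratio of summed histone levels, which was -0.87 in cells with 4000 or more genes. Scaling without small RNA and mitochondrial genes gave -0.49 for matricellular genes.

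By the difference of mean log2, pluripotency genes (0.019) and cadherins (-0.060) turned, and immediate-early genes were at -0.43, HOX genes at -0.12, nucleic acid sensors at 0.34, metallothioneins at -0.35, imprinted genes at 0.10 and small RNA genes at 0.085. Means without the highest 5% of cells turned cadherins (-0.35) and gave -0.34 for S phase genes. A pseudocount of 10 gave 0.33 for simple epithelial genes, 0.088 for cadherins, -0.50 for matricellular genes, -0.27 for immediate-early genes, -0.45 for the YAP and TEAD list, -0.15 for HOX genes, 0.29 for sensors, -0.32 for metallothioneins, -0.38 for S phase genes, and 0.25 for both imprinted and small RNA genes. Cells with 4000 or more genes turned pluripotency genes (0.45) and cadherins (-0.25) and gave -0.48 for matricellular genes, -0.47 for HOX genes, 0.27 for sensors and -0.45 for S phase genes. Without the 5% of cells with most genes, cadherins were at 0.50 (0.497), matricellular genes at -0.43 and imprinted genes at 0.42. With no filter on low values, pluripotency genes (0.0032) and melanocyte markers (-0.010) turned, simple epithelial genes were at 0.33, cadherins at 0.0025, matricellular genes at -0.37, HOX and small RNA genes at 0, sensors at 0.47 and imprinted genes at 0.019. At a mean of 10 or more, muscle markers (3.01) and complement regulators (-0.15) turned, cadherins were at 0.082 and sensors at 0.42.

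A further 2 settings were chosen after seeing the data. Without pseudogenes and genes with a pseudogene of their name, pluripotency genes turned to 0.37 and matricellular genes were at -0.48. Without cells over 10% small RNA, cadherins were at 0.45 and matricellular genes at -0.50. No paired analysis was possible because the results come from no test and the cell numbers only name cells. The unknown depth per cell limits what a value of 0 means.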
